A study of Malus domestica with 6 samples.

Results

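Transcription factor genes outside the MYB and NAC families were followed in the exocarp, the outer skin layers, of apples (Malus domestica). They were found by words in the gene descriptions of the deposited table, such as WRKY, helix-loop-helix, homeobox, MADS, bZIP, ovate, AT-hook, Dof-type or zinc finger. Descriptions that named MYB, NAC domain, kinase, RING or ubiquitin were left out. These words matched 54 of 1261 listed genes, 4 of them RING zinc fingers that were dropped, which left 50 members.

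Exocarp of 3 fully russeted varieties (St Edmund Pippin, Reinette Parmentier and Patte de Loup), whose skin is rough and corky, was compared with that of 3 fully waxy varieties (AG94, AF42 and Gala). All came from the orchards of one research centre in one month, and each variety gave 1 RNA sequencing library. The varieties are thus the replicates of a skin type (n = 3 each), and an effect of skin type cannot be told apart from other features of these varieties. The authors had selected the listed genes for a difference on these same libraries, so the tests below are not independent evidence.

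Transcription factors bind DNA at short motifs and raise or lower the rate at which nearby genes are copied into RNA. Plants carry large families of them, each named for its DNA-binding fold, and members of one family often act in different organs. In the skin of fruits and leaves, MYB factors, some homeodomain proteins and SHINE-type ERF proteins are known to control cuticle formation. WRKY and zinc finger proteins are better known from responses to stress and pathogens.

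The label transcription factor was taken to hold for most but not all members. By their descriptions, 10 were set apart by hand as zinc finger proteins of other kinds. Examples are SGS3 of RNA silencing and a DHHC-type protein that attaches fatty acids to proteins. The other 40 were taken as regulators by default, among them both ovate genes, whose descriptions do not name DNA binding. The 10 include a BED zinc finger gene with a hAT dimerisation domain (MDP0000625622), so the split is rough. In the column of protein domains, which the word search did not use, 30 members carried a domain counted for their family. A further 11 had no domain listed, and 9 listed only domains that were not counted for their family. A domain not counted can still be a zinc finger of another kind, as PF00641 in the Ran BP2-type gene MDP0000262811. The counted domain was not always the one that names the family. Both AT-hook genes listed PF03479 only, and BEL1 MDP0000143173 listed PF07526 without the homeodomain PF00046 of other homeobox members. All 5 WRKY, both bZIP, both ovate, both AT-hook and both AP2/B3 genes carried a domain counted for their family. The gene matched to WLIM1 (MDP0000190738) was described as a GATA factor but carried a LIM domain, which in plants is known from proteins that bundle actin. The gene matched to SVP (MDP0000232313) listed the K-box of a MADS protein without the DNA-binding MADS domain, and was one of the 9 with only domains not counted. Gene models are named by their Arabidopsis match in the table.

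RPKM is the number of reads per kilobase of gene and per 1 M mapped reads. Mapped reads, worked back from the deposited RPKM, ran from 9.44 M in Gala to 19.1 M in Reinette Parmentier, and the listed genes took 4.71% to 5.26% of them in russeted and 7.09% to 9.73% in waxy libraries. Cuticle genes, the marker of fruit epidermis, were read in all 6 libraries, and 7 of the 8 fell in russeted exocarp (edgeR), while 6 of 7 cork genes rose. Of all tested genes 9.31% fell and 19.2% rose. The cork gene without a call, KCS2, had a higher mean in waxy (156 RPKM) than in russeted skin (51.1 RPKM). Summed cuticle markers stood at 88.9 to 362 RPKM in russeted and 1365 to 2433 RPKM in waxy skin. The 4 phloem protein genes summed to 50.3 to 102 RPKM in russeted and 15.0 to 30.6 RPKM in waxy skin, and 2 of them rose. The 5 listed photosynthesis genes summed to 479 to 3821 RPKM in russeted and 3702 to 7719 RPKM in waxy skin. Most of this sum came from ELIP1 MDP0000840536, with 366 to 3595 RPKM in russeted and 3352 to 7177 RPKM in waxy skin. Of the 5, 0 rose and 0 fell (edgeR), while 2 stood higher and 3 lower in russeted skin. None of the markers fixed for xylem was in the table. The part of these tissues in the changes below was not tested, and in whole skin a change in the share of a cell type cannot be told apart from a change in RNA per cell.

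Of the 50 members, all passed the low-count filter, and 14 rose and 4 fell in russeted exocarp at an edgeR adjusted p under 0.05. These 18 made up 36% of the members, and 28.5% of all 1246 tested genes passed. The risen made up 28% of the members against 19.2% of the tested genes, and the fallen 8% against 9.31%. Log2 fold changes of russeted over waxy were above 0 in 40 members and below 0 in 10, with a median of 1.35, beside a median of 1.19 over all tested genes. Each of the 10 families held at least 1 risen gene, and 3 families held a fallen one.

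Which calls passed depended on how the libraries were scaled. With TMM factors, which assume that most listed genes do not differ, 0 members rose and all 10 members below 0 fell (background 3.53% risen and 23.8% fallen). This scaling moved the median of all tested genes from 1.19 to 0.20 and that of the members from 1.35 to 0.32. All 14 risen members stayed above 0, at log2 fold changes of 0.99 to 2.17, and 7 of the 50 members changed sign, 0 of them past the threshold. The same 4 genes that fell with mapped reads also fell with TMM factors. Unless TMM factors are named, values are relative to mapped reads.

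The number that rose was 8 without St Edmund Pippin, 6 without Reinette Parmentier or without Patte de Loup, 9 without AF42 and 7 without Gala. The number that fell was 1 without Reinette Parmentier or without Patte de Loup and 2 without AF42. Only the counts that moved furthest from those of the full fit are given here. Without AG94 the number that rose stayed nearer to that of the full fit. The counts can include genes called only in that fit. Of the 18 changed genes, 9 kept their call without St Edmund Pippin and 7 without Reinette Parmentier or without Patte de Loup. Without AG94, AF42 or Gala, 14, 8 and 11 of the 18 did. In all, 4 passed the test whichever variety was left out, namely the 2 ovate genes, EGL3 and 1 bZIP gene. Each such fit had fewer libraries.

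**Figure D1:**
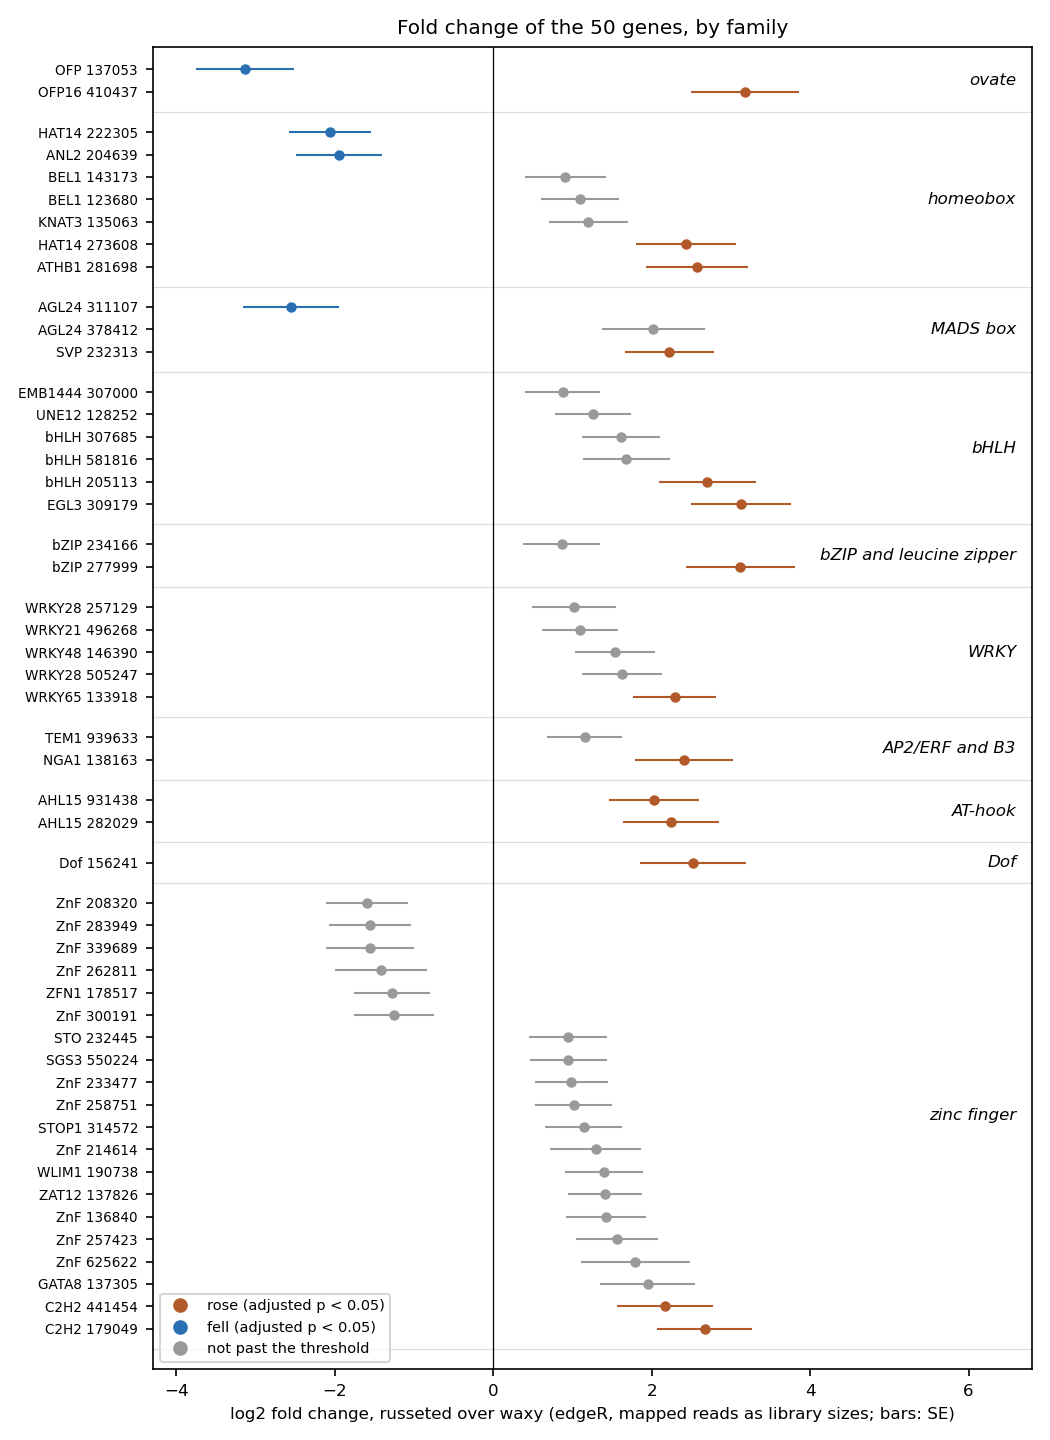
Log2 fold change of russeted over waxy exocarp (x axis; points, with bars for the SE) for the 50 genes, grouped by family and labelled with the symbol or family and the number of the gene model. The 14 genes that rose lie between 2.03 and 3.18, the 4 that fell between -3.13 and -1.94, and the other 32 between -1.59 and 2.02.

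The 14 risen genes were mostly low in waxy skin. Their waxy means ran from 0.347 to 6.06 RPKM and 7 of them were under 1 RPKM, while their russeted means ran from 2.96 to 32.8 RPKM. In 8 of the 14 a library held 5 or fewer reads, so that their waxy level is known only roughly. The 32 members not past the threshold were more abundant, with a median over the 6 libraries of 14.5 RPKM against 3.27 RPKM in the risen genes. Russeted and waxy libraries did not overlap in 48 of the 50 members (96%), beside 87.5% of all listed genes. Of these, 38 were higher in russeted exocarp (63.1% of all listed genes were) and 10 lower (24.3%). The 2 exceptions were copies of AGL24 and BEL1.

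**Figure D2:**
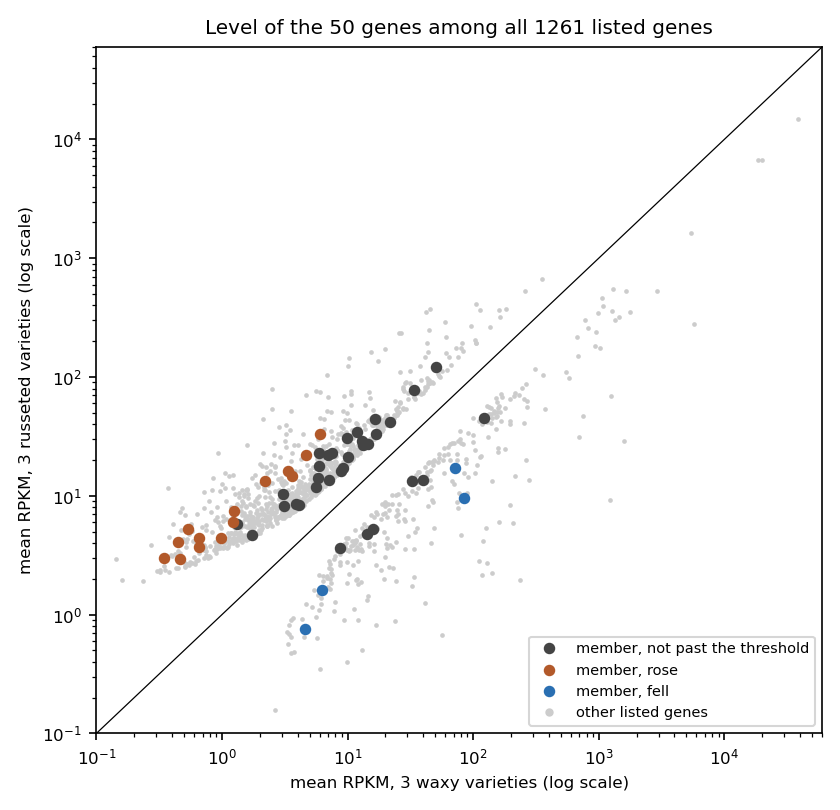
Mean RPKM of the 3 waxy (x axis) and 3 russeted varieties (y axis), both on log scales, for the 50 members and the other listed genes (grey); the line marks equal means. Risen members sit at waxy means of 0.347 to 6.06 RPKM.

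In the sentences below, russeted values are in the order St Edmund Pippin, Reinette Parmentier and Patte de Loup, and waxy values in the order AG94, AF42 and Gala. Means carry the SD over 3 varieties and log2 fold changes the SE. Counts of calls in a family stand beside 19.2% risen and 9.31% fallen of all tested genes. With TMM factors these shares were 3.53% and 23.8%.

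The 2 ovate genes moved in opposite directions. Ovate proteins are plant-specific repressors named after a tomato gene of fruit shape. OFP16 (MDP0000410437) had 1.65, 5.18 and 9 RPKM in russeted and 0.95, 0.25 and 0.42 RPKM in waxy skin. The lowest russeted library stood above the highest waxy one, but by less than the spread among russeted varieties, where Patte de Loup was highest. The log2 fold change was 3.18 ± 0.68 (adjusted p = 0.0132). Its waxy libraries held 12, 2 and 3 reads. The other member, MDP0000137053, fell, with 10.3, 13.9 and 4.69 RPKM in russeted and 123, 31.3 and 99.5 RPKM in waxy skin. AF42 was the waxy variety nearest to the russeted ones. Its means were 9.63 ± 4.65 and 84.6 ± 47.7 RPKM, an 8.78-fold difference (log2 fold change -3.13 ± 0.61, adjusted p = 0.00824). Both calls held without any 1 variety, with adjusted p of at most 0.0471 for OFP16 and 0.0421 for MDP0000137053. OFP16 did not pass with TMM factors (adjusted p = 0.111).

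The 7 homeobox genes divided into 2 that rose, 2 that fell and 3 without a call; with TMM factors 0 rose and the same 2 fell. The gene matched to ANL2 (MDP0000204639) encodes a homeodomain protein with a lipid-binding START domain. ANL2 acts in anthocyanin formation in Arabidopsis, and its tomato relative is required for cutin. It had 1.56, 1.82 and 1.46 RPKM in russeted and 6.29, 9.31 and 3.05 RPKM in waxy skin. Russeted values were nearly level and waxy ones spread from Gala, the lowest, to AF42. The log2 fold change was -1.94 ± 0.54 (adjusted p = 0.0481), and the call was lost without any 1 variety but Gala (0.0849 without AG94 to 0.165 without AF42).

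ATHB1 (MDP0000281698), a class I homeodomain-leucine zipper factor, had 14.7, 13.2 and 12.2 RPKM in russeted and 2.92, 3.3 and 0.43 RPKM in waxy skin. The russeted varieties were close to each other, and Gala, with 4 reads, stood lowest. It rose by 2.57 ± 0.64 on the log2 scale (adjusted p = 0.027) and lost its call without St Edmund Pippin (0.0856), Reinette Parmentier (0.0811) or Gala (0.0677). KNAT3 (MDP0000135063), a class II KNOTTED-like factor with the highest russeted mean among the homeobox members, had 67, 74.4 and 94 RPKM in russeted and 38.1, 39.7 and 24.5 RPKM in waxy skin. The groups did not overlap, and the log2 fold change of 1.2 ± 0.49 missed the threshold (adjusted p = 0.214). In the authors' deposited table its false discovery rate was 4.06e-05. The 2 BEL1 genes, matched to a factor of ovule development whose family pairs with KNOTTED-like proteins, stood at log2 fold changes of 1.09 and 0.91, without a call (adjusted p = 0.275 and 0.502).

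The homeodomain-leucine zipper gene HAT14 was present as a pair of gene models that moved in opposite directions. MDP0000222305 fell, with 24, 9.4 and 17.9 RPKM in russeted and 58, 85.8 and 71 RPKM in waxy skin, a log2 fold change of -2.07 ± 0.52 (adjusted p = 0.0269). MDP0000273608 rose, with 44, 23.4 and 31.1 RPKM in russeted and 6.84, 1.21 and 10.1 RPKM in waxy skin, a log2 fold change of 2.44 ± 0.63 (adjusted p = 0.0326). Neither model overlapped between the skin types. The first model gave 87.5% to 98.6% of the summed RPKM of the pair in waxy varieties and 28.7% to 36.6% in russeted ones. Summed over both models, HAT14 stood at 49.95 ± 17.6 RPKM in russeted and 77.6 ± 11.4 RPKM in waxy skin, and these ranges overlapped, with 68 RPKM in St Edmund Pippin and 64.9 RPKM in AG94. Reads unique to one gene made up 99.9% of the first and 82.1% of the second model. The fall was lost without Reinette Parmentier (adjusted p = 0.130), Patte de Loup (0.0867) or AF42 (0.0569), and held with TMM factors (0.0057). The rise was lost without any 1 variety but Gala (0.0542 without Patte de Loup to 0.127 without St Edmund Pippin) and with TMM factors (0.71). In the authors' deposited table the false discovery rates were 5.54e-07 and 0.00142.

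The MADS-box gene AGL24, a promoter of flowering in Arabidopsis, was also present as a pair of models, and the 3 MADS-box members divided into 1 that rose, 1 that fell and 1 without a call; with TMM factors 0 rose and the same 1 fell. MDP0000311107 had 0.53, 0.86 and 0.9 RPKM in russeted and 1.64, 5.98 and 6.19 RPKM in waxy skin, a log2 fold change of -2.55 ± 0.60 (adjusted p = 0.0196). MDP0000378412 had 6.5, 8.44 and 2.37 RPKM in russeted and 2.78, 0.55 and 0.62 RPKM in waxy skin, a log2 fold change of 2.02 ± 0.65 that was not past the threshold (adjusted p = 0.0858). In the second model AG94 stood above Patte de Loup, so the groups overlapped. In both models AG94 was the waxy variety nearest to the russeted ones. Summed over both, AGL24 stood at 6.53 ± 3.05 RPKM in russeted and 5.92 ± 1.31 RPKM in waxy skin. The fall was lost without St Edmund Pippin (adjusted p = 0.109), Reinette Parmentier (0.0902) or Patte de Loup (0.0619), and held with TMM factors (0.00678).

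SVP (MDP0000232313), a repressor of flowering in Arabidopsis, had 28.4, 26.7 and 11.1 RPKM in russeted and 6.34, 3.9 and 3.81 RPKM in waxy skin. All russeted values were above all waxy ones, with Patte de Loup lowest of the 3. It rose by 2.22 ± 0.57 (adjusted p = 0.0291), and the call was lost without St Edmund Pippin (0.0945), Reinette Parmentier (0.110), AF42 (0.0827) or Gala (0.0901) and with TMM factors (0.5).

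Among the members, 7 pairs of gene models shared an Arabidopsis match. The russeted to waxy difference in the log2 ratio of one model to the other was -5.01 for HAT14 and -4.77 for AGL24. In the other 5 pairs it lay between -0.26 and 0.56, and both models of each of these pairs had the same direction. An exact permutation test (two-sided) gave p = 0.1 for HAT14 and for AGL24, the smallest that 3 against 3 libraries allow, and 0.35 adjusted over the 7 pairs, so this design cannot pass the threshold. For the other pairs p was 0.6 to 1.

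**Figure D3:**
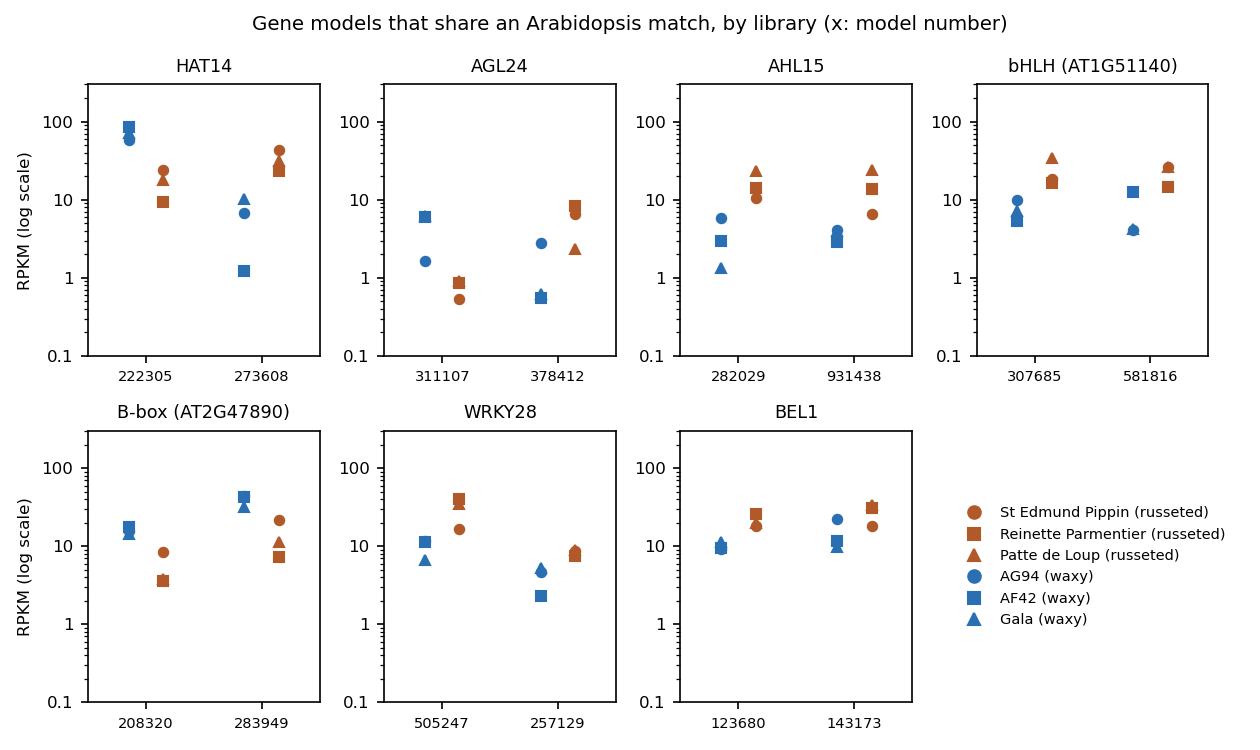
RPKM (y axis, log scale) in each library for the 7 pairs of gene models that share an Arabidopsis match (x axis: number of the gene model); colours mark the skin type and symbols the variety. In HAT14 the first model is higher in waxy and the second in russeted libraries, and in AGL24 likewise except that AG94 stands above Patte de Loup in the second model.

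All 6 bHLH genes had log2 fold changes above 0, and 2 rose; with TMM factors 0 rose and 1, EMB1444, was below 0. EGL3 (MDP0000309179), which in Arabidopsis joins MYB factors in complexes for anthocyanin and hair formation, had 5.72, 2.88 and 3.64 RPKM in russeted and 0.75, 0.17 and 0.43 RPKM in waxy skin. Its lowest russeted value was several times its highest waxy one. The log2 fold change was 3.13 ± 0.63 (adjusted p = 0.00993), on 4 to 28 reads per waxy library. This call held without any 1 variety (0.0386 at most), but not with TMM factors (0.0688). MDP0000205113 had 3.25, 3.93 and 6 RPKM in russeted and 1.15, 0.27 and 0.54 RPKM in waxy skin. It rose by 2.70 ± 0.62 (adjusted p = 0.0169), a call lost without Patte de Loup (0.0535) or AF42 (0.0549). UNE12 (MDP0000128252), named for a defect in fertilisation, had the highest russeted mean of all 50 members but not the highest waxy one, with 101, 98.6 and 166 RPKM in russeted and 42.8, 69.6 and 40.7 RPKM in waxy skin. The groups did not overlap, and the log2 fold change of 1.26 ± 0.48 was not past the threshold (adjusted p = 0.164). Only 2.91% of the reads of the gene matched to EMB1444 (MDP0000307000) were unique to it, so its level is shared with other models.

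Of 2 bZIP genes 1 rose, and with TMM factors 0. MDP0000277999 had 1.19, 2.36 and 5.39 RPKM in russeted and 0.22, 0.62 and 0.2 RPKM in waxy skin. Patte de Loup was highest, and St Edmund Pippin stood nearest to the waxy varieties. The log2 fold change was 3.12 ± 0.69 (adjusted p = 0.0148), and the call held without any 1 variety (0.0497 at most). Unique reads made up 60.5% of its total. The other gene, MDP0000234166, had 20, 12.5 and 15.7 RPKM in russeted and 6.15, 8.54 and 11.8 RPKM in waxy skin, where Gala came close to Reinette Parmentier (log2 fold change 0.86 ± 0.49, adjusted p = 0.508). With TMM factors its direction reversed.

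All 5 WRKY genes had non-overlapping groups with russeted exocarp higher, as 63.1% of all listed genes did, and 1 rose, beside 19.2% of all tested genes; with TMM factors 0 rose and a copy of WRKY28 was below 0. WRKY65 (MDP0000133918) had 7.83, 5.5 and 4.8 RPKM in russeted and 1.27, 0.95 and 1.45 RPKM in waxy skin. Both groups were tight beside the gap between them, and the log2 fold change was 2.29 ± 0.52 (adjusted p = 0.0169; 0.0569 without St Edmund Pippin and 0.0631 without AF42). WRKY48 (MDP0000146390), a stress-induced factor in Arabidopsis and the most abundant WRKY member, had 48.2, 32.4 and 22.8 RPKM in russeted and 8.25, 16.6 and 10.7 RPKM in waxy skin. Its log2 fold change of 1.54 ± 0.50 missed the threshold (adjusted p = 0.0921). The pair of WRKY28 models had log2 fold changes of 1.62 and 1.02, and WRKY21 one of 1.09, with adjusted p of 0.0768, 0.398 and 0.257.

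The AP2 and B3 group held 2 genes, of which NGA1 rose, and with TMM factors 0. NGA1 (MDP0000138163), a B3 factor that shapes leaf margins and the style in Arabidopsis, carried a B3 domain only. It had 4.47, 2.3 and 4.31 RPKM in russeted and 1.17, 0.65 and 0.16 RPKM in waxy skin, where Gala held 2 reads. The log2 fold change was 2.41 ± 0.62 (adjusted p = 0.0316), and the call was lost without any 1 variety but AG94 (0.0553 without Reinette Parmentier to 0.111 without St Edmund Pippin). TEM1 (MDP0000939633), which carries both an AP2 and a B3 domain and delays flowering in Arabidopsis, had 18.8, 31.9 and 36.6 RPKM in russeted and 10.2, 16.5 and 12.7 RPKM in waxy skin. St Edmund Pippin stood close to AF42, and the log2 fold change of 1.15 ± 0.48 was not past the threshold (adjusted p = 0.223).

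Both AT-hook genes, matched to AHL15 of a family that binds AT-rich DNA, rose, and with TMM factors 0 did. MDP0000282029 had 10.7, 14.1 and 23.6 RPKM in russeted and 5.81, 2.93 and 1.34 RPKM in waxy skin, a log2 fold change of 2.24 ± 0.61 (adjusted p = 0.0401). MDP0000931438 had 6.65, 13.9 and 23.8 RPKM in russeted and 4.06, 2.85 and 3.93 RPKM in waxy skin, a log2 fold change of 2.03 ± 0.57 (adjusted p = 0.0491). In both, St Edmund Pippin stood nearest to the waxy varieties and Patte de Loup farthest. Nearly all their reads were unique. The first call was lost without any 1 variety but AG94 (0.0569 without St Edmund Pippin to 0.175 without Patte de Loup). The second was lost without any 1 variety but St Edmund Pippin (0.093 without AG94 to 0.29 without Patte de Loup).

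The only Dof gene in the list, MDP0000156241, of a plant family with a single zinc finger, had 3.18, 6.6 and 12.4 RPKM in russeted and 2.2, 1.09 and 0.47 RPKM in waxy skin. St Edmund Pippin and AG94 stood close to each other across the skin types. It rose by 2.52 ± 0.67 (adjusted p = 0.0372), a call lost without Reinette Parmentier (0.0933), Patte de Loup (0.162), AF42 (0.0967) or Gala (0.109) and with TMM factors (0.422).

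Zinc finger genes were the largest group, with 20 members, of which 2 rose and 0 fell with edgeR, beside 19.2% and 9.31% of all tested genes. An unadjusted p under 0.05 was found for 11 above and 6 below 0. DESeq2 called 9 risen and 4 fallen, and limma 4 and 1 on log2(RPKM + 1) and 0 and 0 on log2(RPKM + 0.1). With TMM factors 0 rose and all 6 members below 0 fell (background 3.53% risen and 23.8% fallen), and 3 members turned from above to below 0. The 2 that rose were C2H2 genes without a symbol. MDP0000179049 had 1.9, 2.5 and 4.47 RPKM in russeted and 0.41, 0.81 and 0.16 RPKM in waxy skin, a log2 fold change of 2.67 ± 0.60 (adjusted p = 0.0164; 0.0551 without Patte de Loup). MDP0000441454 had 5.26, 2.57 and 5.33 RPKM in russeted and 0.42, 1.56 and 0.99 RPKM in waxy skin, a log2 fold change of 2.16 ± 0.61 (adjusted p = 0.0476). The groups did not overlap in either gene. The second call was lost without any 1 variety but AF42 (0.0693 without Reinette Parmentier to 0.171 without AG94).

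The other C2H2 members had log2 fold changes above 0 that were not past the threshold, among them the stress gene ZAT12 (MDP0000137826, 1.41 ± 0.47, adjusted p = 0.102) and STOP1 (MDP0000314572, 1.14 ± 0.48, adjusted p = 0.234). STOP1 acts in tolerance of acid and aluminium in Arabidopsis, and its apple model also lists a reverse transcriptase domain. GATA8 (MDP0000137305), a factor of seed germination in Arabidopsis, stood at a log2 fold change of 1.95 ± 0.60, without a call (adjusted p = 0.074).

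The pair of B-box genes with a CCT domain in their description, the domain pair of CONSTANS-like proteins, were lower in every russeted than in any waxy library. This held for 24.3% of all listed genes. MDP0000208320 had 8.33, 3.58 and 3.86 RPKM in russeted and 15.5, 17.5 and 14.4 RPKM in waxy skin, a log2 fold change of -1.59 ± 0.52 (adjusted p = 0.0927). MDP0000283949 had 21.9, 7.34 and 11.3 RPKM in russeted and 44, 43.4 and 31.5 RPKM in waxy skin, a log2 fold change of -1.56 ± 0.52 (adjusted p = 0.101). Neither passed with all libraries, and St Edmund Pippin stood closest to the waxy level in both. With 1 variety left out, edgeR adjusted p ran from 0.0496 to 0.332 for the first and 0.0498 to 0.356 for the second. DESeq2 called both fallen (adjusted p = 0.00525 and 0.00739). With TMM factors both fell, with adjusted p of 0.00813 and 0.0102. The third B-box gene, STO (MDP0000232445), of light signalling in Arabidopsis, stood at 0.94 ± 0.50 on the same scale, without a call (adjusted p = 0.421).

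Of the 10 zinc finger proteins of other kinds, 0 passed the edgeR test, beside 28.5% of all tested genes. Their log2 fold changes were -1.56 to 1.79, and they were set apart after their values were seen. An unadjusted p under 0.05 was found for 4 above and 4 below 0, DESeq2 called 3 risen and 2 fallen, and limma 0 with either pseudocount. With TMM factors the 4 below 0 fell, beside 23.8% of all tested genes. The most abundant was a Ran BP2-type gene, MDP0000262811, with 44.5, 70.3 and 21.6 RPKM in russeted and 138, 105 and 121 RPKM in waxy skin, a log2 fold change of -1.42 ± 0.58 (adjusted p = 0.212). Its model also lists domains of a small heat shock protein and of a lipid transfer protein. In 3 of these 10, unique reads were under 50% of the total: a mitochondrial Zim17-type gene (31.7%), a DWNN-domain gene (38.8%) and a CCCH gene with an RNA-binding domain (39.0%).

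**Figure D4:**
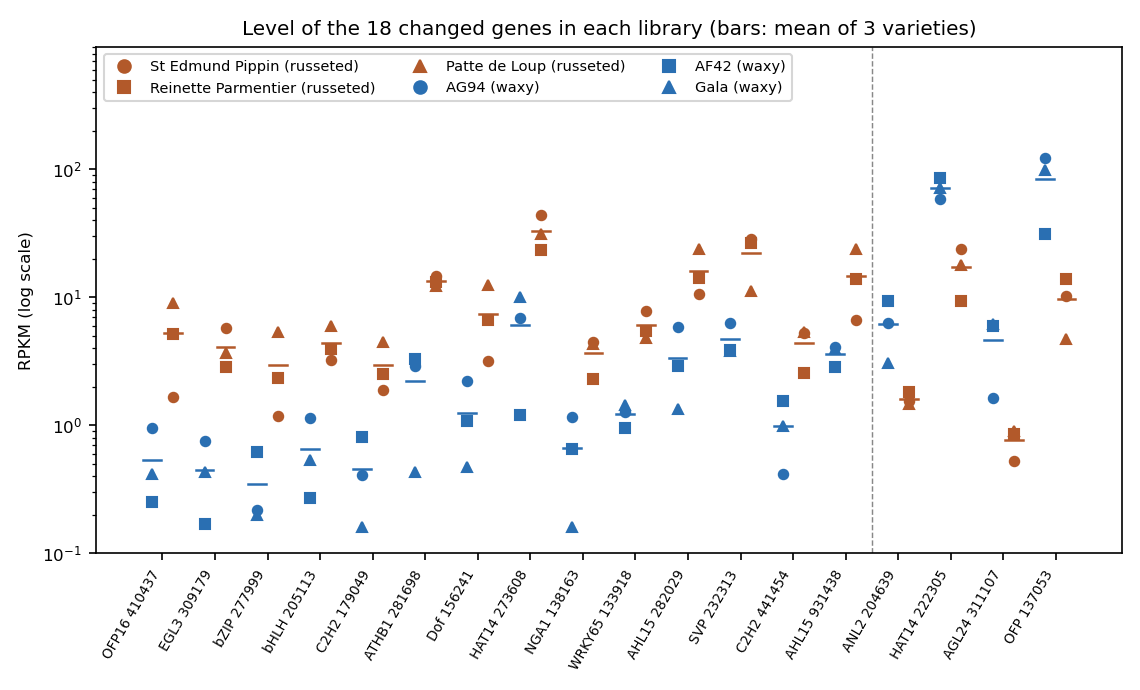
RPKM (y axis, log scale) in each library for the 18 changed genes, ordered by fold change from OFP16 to the ovate gene MDP0000137053; symbols mark the varieties, short bars the mean of 3, and the dashed line separates the 14 risen from the 4 fallen genes. The groups overlap in none of the 18, and Patte de Loup or St Edmund Pippin is the highest library in every risen gene.

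The russeted varieties did not share one order over the 14 risen genes. St Edmund Pippin was lowest and Patte de Loup highest, with Reinette Parmentier between them, in 7 genes: both AHL15 models, OFP16, the Dof gene, the bZIP gene, the bHLH gene MDP0000205113 and the C2H2 gene MDP0000179049. St Edmund Pippin was highest in 6 genes, namely NGA1, SVP, WRKY65, EGL3, ATHB1 and HAT14 MDP0000273608. Reinette Parmentier was highest in 0. Summed cork markers had the order of the first set, with 122 RPKM in St Edmund Pippin, 403 RPKM in Reinette Parmentier and 614 RPKM in Patte de Loup. In the waxy varieties this sum was 262 RPKM in AG94, 199 RPKM in AF42 and 108 RPKM in Gala, so that the skin types overlapped. Most of the waxy sum came from 1 cork gene, KCS2 (MDP0000625646), with 201, 176 and 91.7 RPKM in AG94, AF42 and Gala. KCS2 had means of 51.1 RPKM over the russeted and 156 RPKM over the waxy varieties, without a call (edgeR adjusted p = 0.182). The other 6 of the 7 cork genes rose. Of the 7, 5 lay higher in every russeted than in any waxy library, beside 63.1% of all listed genes. Summed phloem markers also had the order of the first set, with 50.3, 70.0 and 102 RPKM in St Edmund Pippin, Reinette Parmentier and Patte de Loup. Their part in the values of these genes was not tested. With 1 library per variety, differences between varieties have no replicate check.

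Over all 50 members, St Edmund Pippin had the russeted value closest to the waxy mean in 23 (46%), Reinette Parmentier in 18 (36%) and Patte de Loup in 9 (18%). Over all listed genes these shares were 32.3%, 45.3% and 22.4%. Within a skin type the highest library of a member was at the median 1.90 times the lowest in russeted and 2.01 times in waxy exocarp, beside 2.03 and 2.18 times over all listed genes.

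In the authors' deposited table, 21 of the 50 members had a false discovery rate under 0.05 (42%, beside 35.9% of all listed genes), 17 of them higher and 4 lower in russeted exocarp, beside 25.1% and 10.8% of all listed genes. The 2 tests shared 8 of these calls. A further 10 members passed with edgeR only, among them both ovate genes, and 13 in the authors' table only, among them KNAT3 and UNE12. Their directions were the same for all 50.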

How the data were processed

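Per the labels' protocols, skin was freed of flesh, RNA was extracted with a CTAB method, and libraries were made from purified mRNA with a TruSeq RNA kit. This kit does not mark strand, so reads of a gene and an antisense partner cannot be told apart. The single deposited table came, per the file headers, from CLC Genomics Workbench 6.5. Its mapping settings, build and annotation: not given in the sources used here. Deposited counts are total and unique gene reads, and reads placed at more than 1 gene are in the total only. The deposited RPKM values scale total reads by gene length and mapped reads, and the authors' means average 3 of them. The deposited comparison (Baggerley's test, per the file headers) comes as a signed fold (a score), its log2, a p-value and a false discovery rate, which was 0.2 at most. Gene length, another deposited column, is a coding length: all 1261 values are multiples of 3. Of the identifiers, 0 matched the RefSeq table at hand, so positions are not given.

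Variety names in the column headers tied columns to samples. Mapped reads were recovered as the median of reads divided by length and RPKM over genes with at least 200 reads. The main test was the two-sided quasi-likelihood test of edgeR 4.0.16 (in R 4.3.3) on total gene reads of the whole table, with mapped reads as library sizes and its low-count filter, which left 1246 genes. Adjustment (Benjamini-Hochberg) ran over 6449 genes, the number behind the authors' false discovery rates, recovered from p, rate and rank to within 0.5% in 1260 genes; unlisted genes were taken to have larger p. The SE is the log2 fold change divided by the square root of F. The fit was tested on simulated data, there adjusted over the 1242 genes run and not over 6449. It recovered 6 of 48 genes changed 2-fold, 31 of 49 changed 4-fold and 47 of 48 changed 8-fold. Of 1050 unchanged genes, 1 was called. Alternatives were DESeq2 1.42.0, limma 3.58.1 on log2(RPKM + 1) and log2(RPKM + 0.1), other scalings, no filter, unique reads, another adjustment, a replicate block and leaving out each library. The common biological coefficient of variation between varieties was 0.48, and reads carry no molecular identifiers. Whether extracts came from separate fruit is not given.

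Members and lists were chosen with earlier results of these data known. Values in all libraries are given for every member past the threshold and, per family, for the member with the smallest p and the highest mean RPKM; the B-box pair, the second AGL24 model and other members were named after their values were seen, as was the split into regulators and other proteins.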

Additional observations from a re-analysis of the deposited data

How the results depend on the processing

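With DESeq2 size factors computed on the listed genes, 0 members rose and 10 fell, as with TMM factors (0 and 10), with medians among members of 0.30 and 0.32. Over all tested genes 43 rose and 296 fell with the first, 44 and 296 with the second. The DESeq2 test gave 31 risen and 8 fallen members (547 and 266 of all genes), and adjustment over the 1246 tested genes 30 and 10 (597 and 290). With limma 8 members rose and 2 fell on log2(RPKM + 0.1), while 18 rose and 4 fell on log2(RPKM + 1), where the median was 1.22. Unique reads gave 12 and 3, with a median of 1.43. Without 1 library, 6 to 12 members rose and 1 to 4 fell (134 to 194 and 67 to 105 of all genes), with a median of 1.16 to 1.39. No filter changed 0 of the member calls. The cause of these differences was not tested, except that the adjustment ran over fewer genes.

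Directions reversed with TMM factors and with DESeq2 size factors, in that order, in WRKY28 MDP0000257129 (-0.032 and -0.058), EMB1444 (-0.12 and -0.13), the bZIP gene MDP0000234166 (-0.19 and -0.21), BEL1 MDP0000143173 (-0.090 and -0.11), the C2H2 gene MDP0000233477 (-0.037 and -0.054), SGS3 (-0.044 and -0.064) and STO (-0.053 and -0.068). The DWNN gene reversed with the second only (-0.0090). No other setting reversed a member.

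With the replicate number of the labels as a block, 12 members rose and 3 fell (209 and 110 of all genes), with a median of 1.37. The numbers did not pair the samples: deviations from the group means correlated by -0.073, -0.0075 and -0.079 within same-numbered pairs, which are different varieties, and 0 of the 6 libraries correlated best with its own number.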

Other observations

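Other regulators of transcription, found by further words of their descriptions (squamosa, scarecrow, response regulator, nuclear factor Y and others), numbered 19, and all were tested. Of these 0 rose and 2 fell with edgeR, beside 19.2% and 9.31% of all tested genes. An unadjusted p under 0.05 was found for 8 above and 2 below 0, DESeq2 called 4 risen and 2 fallen, and limma 0 and 2 with either pseudocount. SPL8 (MDP0000803116), a factor of pollen sac development in Arabidopsis, averaged 0.813 ± 0.297 RPKM (SD, n = 3) over the russeted and 16.7 ± 10.4 RPKM over the waxy varieties. It had 0.47, 0.98 and 0.99 RPKM in St Edmund Pippin, Reinette Parmentier and Patte de Loup, and 22.8, 4.67 and 22.7 RPKM in AG94, AF42 and Gala. The groups did not overlap, and it fell by 4.32 ± 0.69 on the log2 scale (edgeR adjusted p = 0.00346). DPB (MDP0000603020), a partner of the E2F factors of the cell cycle, averaged 1.34 ± 1.21 RPKM over the russeted and 14.4 ± 8.04 RPKM over the waxy varieties, and fell by 3.37 ± 0.71 on the log2 scale (edgeR adjusted p = 0.0121). Unique reads made up 61.6% of its total. Of the other 17 genes, 16 lay above 0 without a call, and BLH1 lay below 0 without a call.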
